A study of Mus musculus with 7 samples.

Results

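The genes described here gave almost no signal in mouse embryonic fibroblasts that lacked p53 and a clear signal on every array of fibroblasts that lacked both p53 and Dnmt1. They were selected on the deposited signals themselves. A probe set, the group of short probes that reads a transcript on an Affymetrix array, had to read at most 30 on all 3 p53-null arrays and at least 150 on all 4 arrays of cells without p53 and Dnmt1. Of 22626 probe sets, 43 met these limits. Keratin and Hox genes and a list of others that includes Wt1, Upk3b and Rhox5 were then set aside, which removed 17 probe sets of 12 genes and left 26 members. The members comprised 16 genes on 19 probe sets, 3 probe sets listed under several gene symbols and 4 that the annotation does not list.

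Each group held 1 array, 7 in all. The cells were p53-/- fibroblasts that were untreated or exposed for 24 or 48 h to TSA, which is trichostatin A, an inhibitor of histone deacetylases, and p53-/- Dnmt1-/- fibroblasts, called double-null here and p53-Dnmt1-null in the plots, in the same 3 states and 2 weeks after TSA was withdrawn. All cells lacked p53, the controls included. No source used here gives the TSA dose, the design of the alleles or the number of lines or embryos. The labels name no separate cultures, so a genotype difference and a difference between cultures cannot be told apart.

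Dnmt1 is the maintenance DNA methyltransferase, which copies CpG methylation onto the new DNA strand after replication. Methylated CpG-rich promoters are commonly silent, and many germline genes are held off in somatic cells in this way. Methylated DNA also recruits complexes that contain histone deacetylases, which is the point at which TSA acts. Fibroblasts that lose Dnmt1 ordinarily die through p53, and for that reason the deletion is studied in cells without p53.

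The 16 member genes were placed in 3 functional groups after they were known, with 2 genes left over. The largest holds 7 genes (Dsp, Lsr, Spint1, Cadm1, Itga3, Shroom3 and Frmd4b). They are genes of cell adhesion, junctions and cell shape except Spint1, an inhibitor of epithelial membrane proteases placed with them. A group of 4 holds enzymes, a carrier and a transporter (Padi3, Smpd3, Rbp4 and Slc39a4). A group of 3 holds regulators of transcription and RNA (Bnc1, Rbpms and Rpp25). Asz1 is a germline gene and Mbp encodes a myelin protein, and both stand apart from the other groups.

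DNA before the transcription start was compared because Dnmt1 acts on CpG. RefSeq promoter sequences of build GRCm38.p6 were matched to 11 of the 16 genes. Each is given as the 250 bases before the start, 5′ to 3′, on the strand of the gene, with CpG dinucleotides in capitals. The 3 printed here show the germline member (Asz1, chr6:18109062-18109311, minus strand), the member with the most CpG (Bnc1, chr7:81992300-81992549, minus strand) and the member with the fewest (Padi3, chr4:140810649-140810898, minus strand).
Asz1: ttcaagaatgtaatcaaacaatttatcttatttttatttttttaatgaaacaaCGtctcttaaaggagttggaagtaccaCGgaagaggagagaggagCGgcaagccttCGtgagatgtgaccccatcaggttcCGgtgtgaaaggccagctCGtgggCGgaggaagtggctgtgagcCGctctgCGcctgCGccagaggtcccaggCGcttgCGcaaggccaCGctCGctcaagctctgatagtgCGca
Bnc1: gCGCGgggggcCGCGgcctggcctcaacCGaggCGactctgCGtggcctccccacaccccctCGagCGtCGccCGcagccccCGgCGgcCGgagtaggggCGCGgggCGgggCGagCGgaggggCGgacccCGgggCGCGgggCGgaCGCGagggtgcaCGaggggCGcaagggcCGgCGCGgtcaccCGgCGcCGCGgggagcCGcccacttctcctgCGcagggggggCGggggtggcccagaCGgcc
Padi3: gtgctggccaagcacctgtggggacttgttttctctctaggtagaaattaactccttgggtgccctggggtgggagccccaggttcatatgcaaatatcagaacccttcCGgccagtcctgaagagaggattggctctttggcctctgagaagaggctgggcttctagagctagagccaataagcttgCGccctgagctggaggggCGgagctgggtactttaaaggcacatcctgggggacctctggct

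These stretches held 15 CpG in Asz1, 39 in Bnc1 and 3 in Padi3. The other 8 genes had between 13 CpG (Lsr) and 28 (Rbp4), with Shroom3 at 27, Spint1 at 26, Dsp and Itga3 at 22, Frmd4b at 16 and Rpp25 at 14, taking the most CpG-rich start of each gene. The median of the 11 member genes was 22. It was 15 over all 9887 genes of the array with a promoter and 6 over the 3089 genes whose probe sets all read at most 30 on the p53-null arrays. At that start the ratio of observed to expected CpG reached 0.6 in 7 of the 11 members, 63.6%, a share near the 60.6% of all genes. It was reached by 29.5% of the genes at most 30 in p53-null cells. Among 24 genes with the opposite pattern, on only in p53-null cells, 6 reached it and the median was 7 CpG. The members also had to be strongly expressed somewhere, which most genes at most 30 in p53-null cells were not, so the 29.5% is not a like-for-like reference. Methylation itself was not measured.

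**Figure D1:**
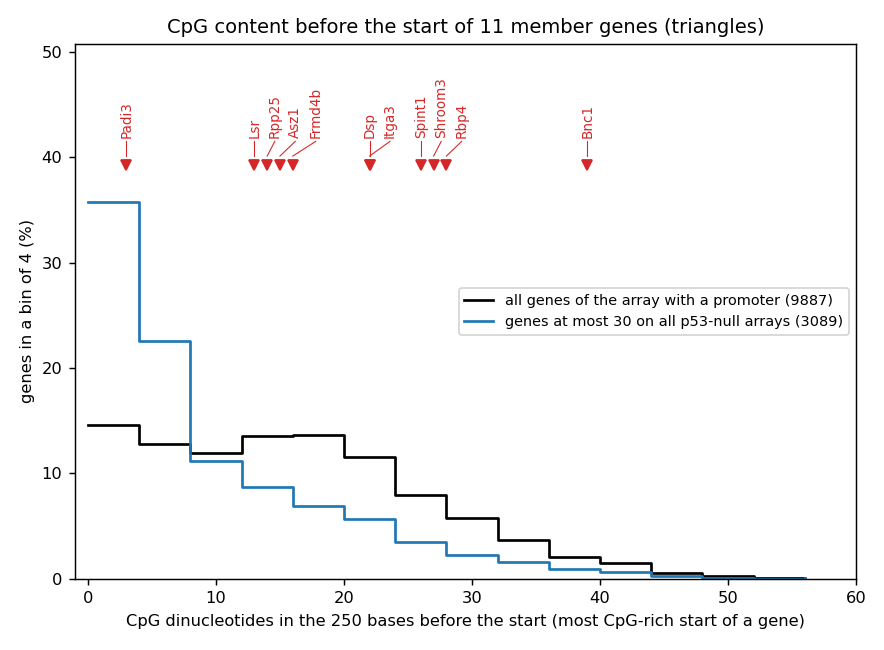
Number of CpG dinucleotides in the 250 bases before the start (x axis, the most CpG-rich start of each gene) against the percentage of genes in each bin of 4 (y axis), for all 9887 genes of the array with a promoter (black) and for 3089 genes at most 30 on all p53-null arrays (blue). Triangles mark the 11 member genes, whose height has no meaning. Padi3, with 3, lies in the lowest bin and the other members lie between 13 and 39.

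Sites of 4 factors whose motifs contain a CpG were sought on both strands of the 250 bases before any listed start of a gene. None of the 4 motifs contains another, though their sites can share bases. The Nrf1 motif GCGCATGC was in 0 of the 11 member genes and in 4.24% of all genes. The cyclic AMP response element TGACGTCA was in 0 members and in 2.53% of all genes, and the E-box CACGTG was in 0 members and in 9.19%. The E2f motif TCCCGCC was in 2 members, Rbp4 and Spint1, and in 17.7% of all genes. These counts say only which letters are present in this window.

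Signals of the members differed between genotypes because the members were chosen by that difference, and the values are given without a test. On the p53-null arrays the members read 0.8 to 28.9, with a median over all readings of 9.85. On the double-null arrays they read 155.5 to 1787.6, with a median of 293.5. No member exceeded the percentile 42.1 of all probe sets on a p53-null array or lay below percentile 73.6 on a double-null array. On the log2(signal + 11.4) scale, where 11.4 is the pooled lower quartile of all signals, the genotype means differed by 2.62 to 6.34, with a median of 3.99. The offset understates the difference of such dim readings. The pattern was uncommon: of 8500 probe sets at most 30 on all p53-null arrays, 8367 stayed below 150 on every double-null array, 42 reached it on 1, 27 on 2, 21 on 3 and 43 on all 4. TSA did not bring any member above 28.2 in p53-null cells, a limit that the selection itself set.

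**Figure D2:**
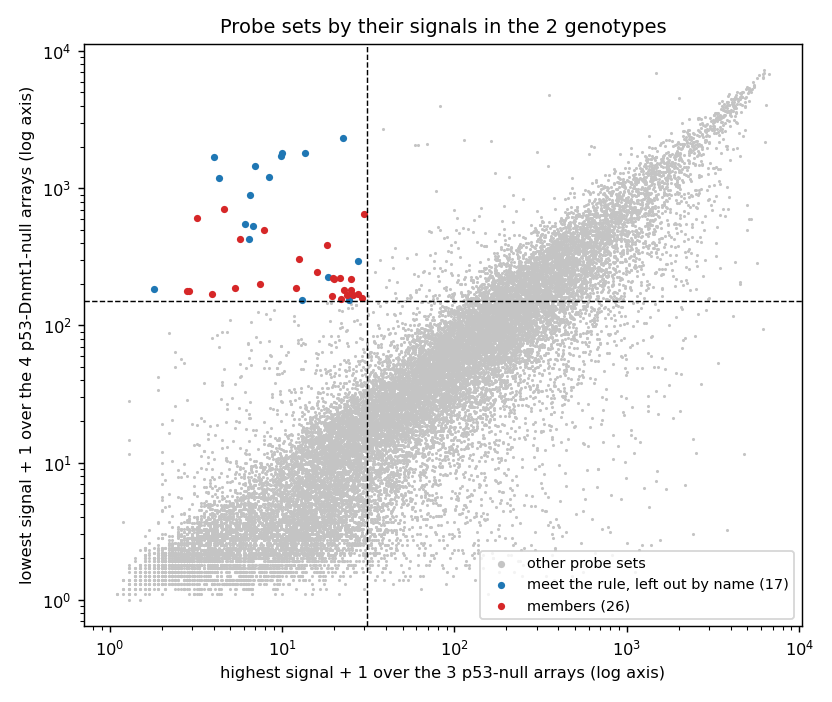
Each point is a probe set, with its highest signal over the 3 p53-null arrays (x) and its lowest signal over the 4 double-null arrays (y), both plus 1 on log axes. Dashed lines mark the limits of 30 and 150. The 26 members (red) and the 17 probe sets set aside by name (blue) fill the upper left corner, and several members lie close to the 150 line.

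Frmd4b, which encodes a FERM-domain scaffold protein, was the only gene with more than 1 member probe set, and had 4. The brightest read 3.4, 2.0 and 4.7 on the p53-null arrays of untreated, 24 h and 48 h cells. In double-null cells it read 601.9, 424.5 and 659.6 at these times and 1135.2 after removal. The other 3 read at most 17.2 in p53-null cells and between 167.9 and 668.1 in double-null cells. All 4 had their lowest double-null reading at 24 h and their highest after removal. They read the same gene and are not independent of one another.

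Itga3, the integrin subunit of a laminin receptor, read 8.6, 11.6 and 7.8 in p53-null cells. Its double-null signals were 509.0, 661.8 and 581.4, with 304.2 after removal. The array after removal was thus the lowest of the 4. Cadm1, an immunoglobulin-like adhesion molecule, went from 14.1, 18.4 and 12.5 in p53-null cells to 387.3, 190.3 and 302.5 without Dnmt1, and read 163.5 after removal.

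Lsr, a receptor protein that also marks tricellular junctions of epithelia, read 11.5, 15.1 and 19.1 in cells without p53 alone. In double-null cells it was at 458.5, 267.7 and 384.3, with 217.1 after removal. The desmosomal plaque protein Dsp read 5.1, 24.7 and 5.9 in p53-null cells and 176.5, 279.6 and 208.1 without Dnmt1, with 165.5 after removal. Its highest reading in each genotype was the one at 24 h.

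Spint1, an inhibitor of membrane serine proteases of epithelia, was at 26.5, 24.1 and 14.9 in p53-null cells, among the highest of the members there. The double-null signals of Spint1 were 204.1, 321.5 and 168.2, and 178.7 after removal. Shroom3, which shapes the apical actin of epithelial cells, read 8.9, 21.0 and 13.2 in p53-null cells and 201.8, 231.6 and 300.9 without Dnmt1. After removal it read 155.5, the lowest double-null signal of any member.

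Among the enzymes, Padi3, a peptidylarginine deiminase of hair follicle and epidermis, read 8.7, 21.8 and 11.1 in p53-null cells. It was at 485.1, 477.1 and 366.8 without Dnmt1 and at 178.7 after removal. Smpd3, the neutral sphingomyelinase that makes ceramide, read 18.7, 14.9 and 13.5 in p53-null cells and 456.7, 337.9 and 587.8 without Dnmt1, with 222.0 after removal. For both, the array after removal was the lowest of the 4.

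Rbp4, the carrier of retinol in plasma, read 20.9, 24.0 and 14.0 in p53-null cells. In double-null cells its signal was 501.6 untreated, 299.0 at 24 h, 208.9 at 48 h and 180.2 after removal, so the untreated array was the highest. Slc39a4, a zinc importer of the cell surface, read 20.6, 13.5 and 14.3 in p53-null cells and 220.6, 241.5 and 357.3 without Dnmt1. It returned to 220.9 after removal, next to its untreated value.

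Bnc1 encodes basonuclin, a zinc finger protein of keratinocytes, germ cells and mesothelium. Its p53-null signals were 11, 5.2 and 9.7 and its double-null signals 275.8, 186.2 and 369.0, with 198.0 after removal. Rpp25, a subunit of RNase P, was among the dimmest members in p53-null cells at 1.1, 1.7 and 1.8. Without Dnmt1 it read 271.6, 177.6 and 218.6, and 183.8 after removal. The RNA-binding protein gene Rbpms read 12.0, 28.2 and 20.3 in p53-null cells and 197.5, 194.6 and 166.0 without Dnmt1, with 157.6 after removal. Its 4 double-null signals were the closest together of any member, with 1.25-fold between the highest and the lowest.

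Asz1, a germ cell protein of the pathway that makes piRNAs against transposons, read 10, 15.0 and 5.1 in p53-null cells. In double-null cells it was at 396.0, 245.1 and 370.2, and at 441.4 after removal. A list of 71 germline genes was drawn up with earlier results of these data known. Of its 43 genes with a probe set, 39 read at most 30 on all p53-null arrays by every probe set, and 31 did so on all 7 arrays. Asz1 was the only one that met both limits. A higher mean in double-null cells was seen for 33 of the 43. The share of all genes with a higher mean is not given here, so this count does not set the list apart. Summed signals were 498.6 to 563.8 on the p53-null arrays and 1114.4 to 1421.2 on the double-null arrays, or 814.2 to 1116.6 without Asz1. Tex14 read at most 15.6 in p53-null cells and up to 150.1 in double-null cells, and Tex15 at most 15.1 and up to 158.1, both highest after removal. Others of the list were low after removal. Tex101 read 4.1 untreated, 212.8 and 253.8 with TSA and 4.8 after removal. Stag3 read 58.5, 155.4 and 109.9, then 50.1, and Taf7l 55.9, 53.7 and 61.6, then 14.8. The list does not hold the germline genes that were set aside by name, such as Rhox5. Mbp, myelin basic protein, read 24.1, 5.5 and 18.5 in p53-null cells and 277.9, 338.1 and 258.8 without Dnmt1, with 217.2 after removal.

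Of the 3 probe sets with several symbols, 2 are listed under genes of the Xlr family, which lies on the X chromosome and whose copies are nearly identical, and no single copy was named. The probe set 1420357_s_at, listed under 3 Xlr3 genes, read 1.9, 1.8 and 0.8 in p53-null cells. It read 178.4, 200.6 and 201.6 without Dnmt1 and 295.6 after removal. The probe set 1449347_a_at, listed under 3 Xlr4 genes, read 6.4, 5.2 and 1.0 in p53-null cells and 239.4, 198.3 and 285.2 without Dnmt1, with 433.1 after removal. Both were highest after removal.

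The third, 1425546_a_at, is listed under both Trf, transferrin, and Srprb, so no gene was named from it. It read 2.2, 1.7 and 1.6 in p53-null cells and 1417.8, 1059.4 and 1240.2 without Dnmt1, with 605.5 after removal. It was among the brightest members. The 4 unlisted probe sets included the brightest of all, 1452452_at, which read at most 3.6 in p53-null cells and 1787.6, 999.2 and 703.8 in double-null cells, with 1636.9 after removal. The probe set 1423954_at read at most 6.8 in p53-null cells and 497.5, 744.9 and 872.3 without Dnmt1, with 1212.8 after removal. It was above untreated at both TSA times and highest after removal, an order shared with 1420357_s_at. The remaining 2, 1451626_x_at and 1434599_a_at, read 647.9 to 1335.6 and 165.2 to 265.1 on the double-null arrays.

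**Figure D3:**
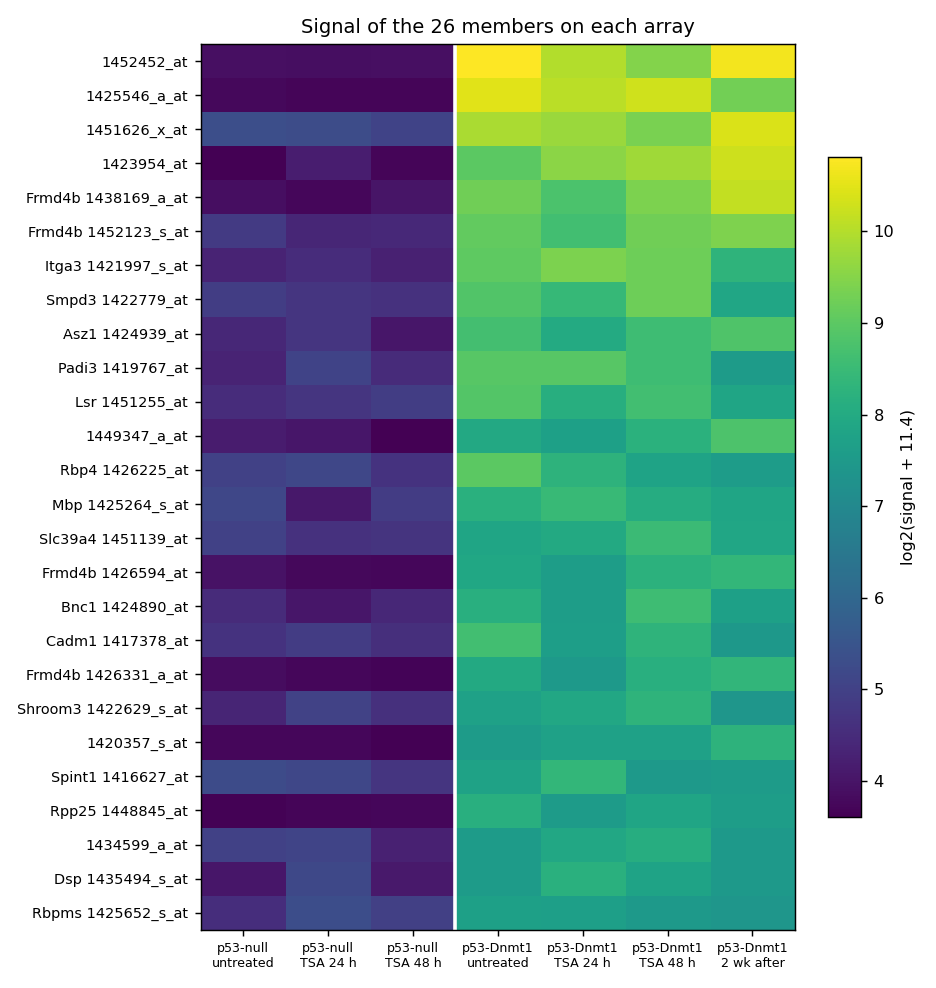
Signal of the 26 members (rows, by falling mean level in double-null cells) on each of the 7 arrays (columns), coloured by log2(signal + 11.4). All 3 p53-null columns are dark, with readings of at most 28.9, and all 4 double-null columns are light, with readings of at least 155.5.

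The limits cut through a continuous range. Just inside the upper limit of 30 lay 1451626_x_at at 28.9, Rbpms at 28.2 and Spint1 at 26.5, followed by Dsp at 24.7 and Mbp at 24.1. Just outside it lay a second probe set of Asz1 at 30.3, one of Rbpms at 33.8, Cyp2s1 at 35.9, Sfmbt2 at 39.1 and Gm9222 at 40.8. Just inside the lower limit of 150 lay Shroom3 at 155.5, Rbpms at 157.6, Cadm1 at 163.5, 1434599_a_at at 165.2 and Dsp at 165.5. Just outside it lay the transcription factor gene Mycn, at 149.5 on its lowest array, then Clcn3 at 145.5, Saa3 at 145.4, Bzw2 at 142.7 and Aif1l at 139.1.

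Other probe sets of the same genes show how far the label of genes on only without Dnmt1 holds. They read the same contrast, so they are a description and not a separate test. There were 23 of them, for 8 genes, and all 23 had a higher mean on the double-null side. For Itga3 the label did not hold. A second probe set read 107.4, 150.4 and 89.4 in p53-null cells and 744.7, 1260.6 and 890.6 without Dnmt1. For Rbpms another probe set read 69.8, 68.0 and 42.3 in p53-null cells and 832.0, 512.2 and 579.0 without Dnmt1. By these probe sets both genes had signal on the p53-null arrays. In all, 6 of the 23 exceeded 30 on some p53-null array.

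The remaining probe sets were mostly dim. For Mbp, all 7 other probe sets stayed below 150 on every array, at most 136.7, so its place among the members rests on 1 of 8. The other 3 of Cadm1 read at most 15.3 in p53-null cells and 40.7 to 248.3 without Dnmt1. The other probe set of Smpd3 read at most 8.4 in p53-null cells and 47.6 to 122.0 without Dnmt1. For Shroom3, 2 others read at most 6.2 in p53-null cells and up to 439.1 without Dnmt1, while a further one read at most 2.8 on every array. Levels of different probe sets are not comparable with one another, since each has its own affinity.

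**Figure D4:**
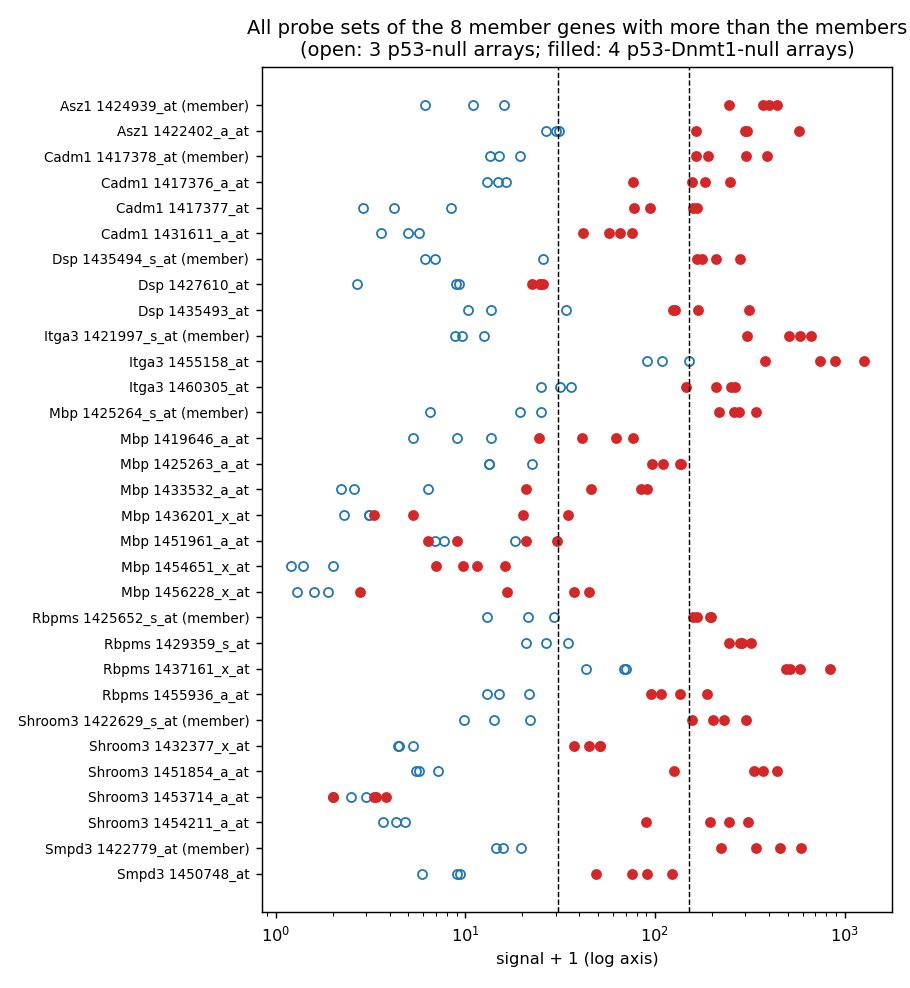
Signal plus 1 (log axis) of every probe set of the 8 member genes that have more than their member probe sets; open circles are the 3 p53-null arrays, filled circles the 4 double-null arrays, and dashed lines the limits of 30 and 150. A second probe set of Itga3 has p53-null signals of 89.4 to 150.4, well above 30, and the 7 others of Mbp lie below 150.

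Genes next to the members on the chromosome were compared with them. For each of the 16 genes with a single symbol, the nearest gene with a probe set was taken on either side in the RefSeq gene order, giving 32 neighbours. The 7 other member probe sets, those of the Xlr families included, were not placed. No neighbour was itself one of the 16 and 0 of 32 had the pattern of the members. Over the array 28 of 12393 genes had it, those set aside by name included. With a pattern this rare, 0 of 32 does not set the neighbours apart. Of the neighbours, 9 read at most 30 on all p53-null arrays, 28.1%, against 32.7% of all 12393 genes. A mean difference of at least 2-fold between genotypes was found in 3 neighbours on the higher side, 9.38%, against 6.28% of all genes. On the lower side it was found in 3. The share of all genes that were lower is not given here, so nothing is read from that count. Cftr and Wnt2, on either side of Asz1, read at most 28.1 and 43.0 on all 7 arrays. Padi4 and Padi1, paralogues on either side of Padi3, read at most 6.4 and 18.7.

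Markers of several other cell types also differed between the genotypes. Counts of markers with a higher mean are given without the share over all genes, so they do not by themselves set a list apart. Summed signals of 33 mesothelial markers were 5521.5 to 7438.3 over the p53-null arrays and 11951.7 to 23685.5 over the double-null arrays, and 24 of 33 were higher in the latter. This list holds 5 genes that the limits picked, Bnc1 and the set-aside Gpm6a, Wt1, Msln and Upk3b. Without them the p53-null sums were 5486.4 to 7395.7, and the double-null sums were 11591.9, 12421.2 and 15069.6, with 8032.1 after removal, so that array lay close to the p53-null range. Calb2, a defining marker, read at most 9.3 and Muc1 at most 5.5. For 51 genes of epithelia and their junctions, Dsp and Spint1 among them, the sums were 1618.6 to 1969.0 and 3243.5 to 6982.2, and 39 were higher. Without Dsp and Spint1 they were 1579.4 to 1912.1 and 2941.6 to 6349.1. Of the 51, 17 read at most 30 on all 7 arrays. Fibroblast markers went the other way. All 24 had a lower mean in double-null cells, with sums of 45882.0 to 54954.8 against 13219.7 to 23972.0, and 20 of 24 read at least 150 on every p53-null array against 8 on every double-null array. Macrophage markers were low, and 9 of 15 read at most 30 on all 7 arrays. In part among such dim readings, 12 of the 15 had a higher mean without Dnmt1. The sums were 249.3 to 302.0 against 315.1 to 586.1, with the 315.1 after removal. Itgb2 read 2.3 to 16.7 against 46.8 to 128.1 and Csf1r 43.7 to 53.6 against 84.7 to 161.8. Ptprc read at most 11.9, and Fcer1g, at 4.3 to 21.0 against 4.2 to 10.9, was not higher. For 16 endothelial markers the sums overlapped, at 323.6 to 449.0 against 229.5 to 500.1, with Pecam1 at most 16.8. In bulk RNA a larger share of cells of a type cannot be told apart from more RNA per cell, and the part of cell type in the members' pattern was not tested. Dnmt1 itself read 695.6, 384.4 and 308.2 in p53-null cells and 74.0 to 206.5 on the double-null arrays. A second Dnmt1 probe set read 413.1, 198.1 and 156.6 against 13.2 to 105.3. The 206.5, on the untreated double-null array, is above the limit of 150 used for the members, so some Dnmt1 signal remained there.

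No member differed by 2-fold from untreated at both TSA times, in either direction, when double-null cells were compared. The selection set no limit on this difference, but it used the same arrays and left out any probe set that fell below 150 with TSA. A member could be 2-fold lower with TSA only from an untreated signal of at least 311.4, which 13 of the 26 had. Of the 26 members, 0 were at least 2-fold higher at both times, while the background was 1.71% of all 14012 probe sets tested and 0.775% of the 4648 that also read at least 150 on all double-null arrays. On the lower side the count was also 0, against 0.378% and 0.129%. With backgrounds this low, 0 of 26 does not set the members apart. In the limma fit over all 14012 probe sets, 0 members and 0% of all probe sets had an adjusted p under 0.05. At an unadjusted p under 0.05 there were 2 members, 7.69%, and 8.11% of all. All 26 members passed the filter of a signal above 45.6 on some array, and did so through the double-null arrays alone.

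Those 2 members were lower with TSA, and both were more than 2-fold lower at 48 h only, a single array. The 2 are 7.69% of the members, against 1.06% of all probe sets tested. Of those at 150 or more on all double-null arrays, 0.344% were 2-fold lower at 48 h. Rbp4, with the signals given above, had a log2 difference of -0.97 ± 0.35 (SE; mean of 24 h and 48 h minus untreated; limma adjusted p = 0.576). The unlisted 1452452_at differed by -1.08 ± 0.33 (limma adjusted p = 0.507), with a signal 2.54-fold lower than untreated at 48 h. The largest difference on the higher side was that of 1423954_at, 0.68 ± 0.33 (limma adjusted p = 0.633). None of these passed the test.

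The arrays at 24 h and 48 h disagreed for many members, as they did for many other probe sets. At 24 h the members' median difference from untreated was -0.27 on the log2 scale, and at 48 h it was 0.15, against -0.05 and -0.01 over all probe sets tested. Of the 26, 10 were below untreated at both times, 7 were above at both and 9 changed side. Thus 17 of 26 kept their side, against 9763 of the 14012 probe sets tested. Of the 4648 at 150 or more on all double-null arrays, 3229 kept it. Changes of side were therefore not particular to the members. All 4 Frmd4b probe sets were among the members that changed side, at -0.28 to -0.50 at 24 h and 0.13 to 0.34 at 48 h. Bnc1 went from -0.54 to 0.41, Smpd3 from -0.42 to 0.36, and Spint1 from 0.63 to -0.26. Cadm1 was lowest at 24 h, at -0.98, and was at -0.35 at 48 h. The array at 24 h also had the highest 18S ribosomal RNA control signal of all, 2549.1 at the 3′ end against 688.1 untreated and 1292.1 at 48 h, and the part of this in the difference between times was not tested. Of 27 junction genes that passed the filter, 2 were at least 2-fold higher at both times, 0 were lower, and limma called 0. Of 27 mesothelial genes 3 were higher and 0 lower, and of 9 germline genes 1 and 0.

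After TSA had been removed for 2 weeks every member still read at least 155.5, which the selection required, but several read well below the untreated cells. At least 2-fold lower were 6 of 26 members, 23.1%, against 8.44% of all probe sets tested and 4.07% of those at 150 or more on all double-null arrays. At least 2-fold higher was 1 member, 3.85%, against 6.73% and 2.88%. A member could fall by 2-fold and stay above 150 only from an untreated signal of at least 311.4, and 13 members had one, so the 6 are 46.2% of those. Of the 3347 probe sets at 150 or more on all double-null arrays with such an untreated signal, 189 were 2-fold lower, 5.65%. These were not held to the members' limit on the p53-null arrays, so the 5.65% is not a like-for-like reference. The untreated state and the state after removal are each a single array, so no enrichment among the members is concluded from these shares. Limma called 0 members and 0.0143% of all probe sets, 2 in number, while 7 members, 26.9%, and 18.8% of all had an unadjusted p under 0.05.

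The 6 were Rbp4, Padi3, 1425546_a_at, Cadm1, Lsr and Smpd3. Rbp4 kept 35.9% of its untreated signal and differed by -1.42 ± 0.41 in log2 units (SE, limma adjusted p = 0.147). Padi3 kept 36.8%, a difference of -1.39 ± 0.40 (limma adjusted p = 0.152). The probe set of Trf and Srprb kept 42.7%, at -1.21 ± 0.34, which had the lowest limma adjusted p of the members, 0.143. Cadm1 kept 42.2%, at -1.19 ± 0.41. Lsr and Smpd3 were just past 2-fold, at -1.04 ± 0.38 and -1.0 ± 0.43. With arrays centred on their median signal, Lsr and Smpd3 were under 2-fold and the count was 4, and 2 members were higher in place of 1. With the offset at the pooled median, 45.6, the count was also 4.

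Probe sets outside the members, which no lower limit held up, bear on some of these genes. The other 3 of Cadm1 were also lower after removal, from 248.3 to 75.4, from 165.6 to 76.5 and from 74.6 to 40.7. Shroom3, whose member probe set went from 201.8 to 155.5, had 2 others that went from 331.6 to 124.5 and from 193.9 to 88.8, while a dim one went the other way, from 43.9 to 50.3. The brighter of the other probe sets of Itga3 went from 744.7 to 381.2. For Smpd3 the probe sets disagreed, since the other went up from 47.6 to 74.3.

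The higher side was led by 1423954_at, at 1.27 ± 0.38 (SE, limma adjusted p = 0.158), the only member past 2-fold. The brightest Frmd4b probe set followed at 0.90 ± 0.41, and its other 3 lay between 0.33 and 0.49. The Xlr4 and Xlr3 probe sets were at 0.83 ± 0.41 and 0.69 ± 0.36. Asz1 was at 0.15 ± 0.45 by its member probe set, and its second probe set went from 296.0 to 576.9. None of these differences passed the test, and the Asz1 and Xlr probe sets were all above untreated. Slc39a4, at 0.00, and Dsp, at -0.09, were close to untreated.

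Lists of related genes were set beside the shares over all probe sets tested, 8.44% lower and 6.73% higher. Of 27 junction genes that passed the filter 9 were at least 2-fold lower after removal and 1 was higher, with a median of -0.48 on the log2 scale. Of 27 mesothelial genes 6 were lower and 0 higher, with a median of -0.48. Of 24 fibroblast genes 5 were lower and 2 higher, with a median of -0.15, and of 9 germline genes 1 was lower and 0 higher, with a median of 0.06, which is near those shares. Over all probe sets the median was -0.06, and the members' median was -0.15. Limma called 0 genes of each of these 4 lists. The array after removal had the lowest 18S signal, 93.6, and its 3′ actin control read 7904.8 against 5421.2 on the untreated array. The part of these in the differences was not tested.

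**Figure D5:**
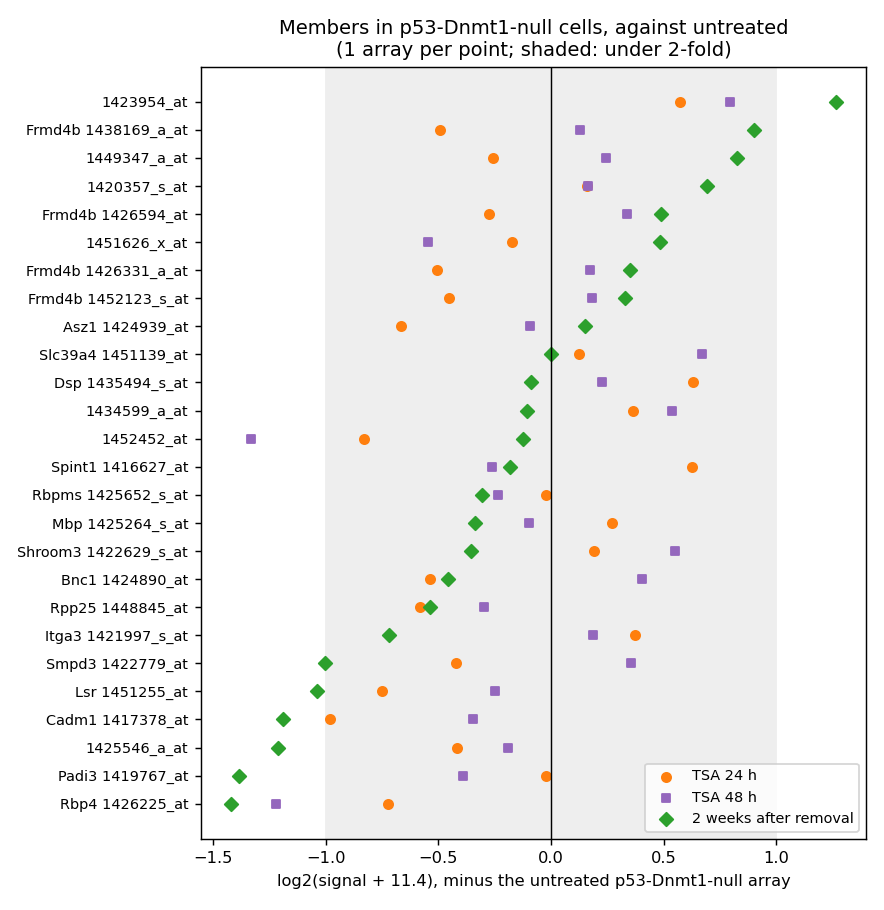
Difference from the untreated double-null array on the log2(signal + 11.4) scale (x) for each of the 26 members (y), at 24 h (circles) and 48 h (squares) of TSA and 2 weeks after removal (diamonds), 1 array per point. The shaded band is a difference under 2-fold. No circle is outside it and 2 squares are, Rbp4 and 1452452_at, while 7 diamonds are, 6 on the lower and 1 on the higher side.

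Compared with the cells under TSA, 0 members were at least 2-fold lower after removal than at both times and 0 were higher. The background was 8.66% and 7.22% of all probe sets tested, and 5.19% and 4.17% of those at 150 or more on all double-null arrays. The selection required at least 150 after removal, so a member could be 2-fold lower only if both TSA signals were at least 311.4. The members' median signal in double-null cells at 24 h was 273.65, so many could not be 2-fold lower. The 0 on the lower side therefore does not set the members apart from these shares. Limma called 0 members, against 14.1% of all probe sets and 11.7% of those at 150 or more. At an unadjusted p under 0.05 there were 8 members, 30.8%, and 35.3% of all. Padi3 came closest to a call, at -1.18 ± 0.35 (SE, limma adjusted p = 0.0572), followed by Itga3 at -1.0 ± 0.30 (limma adjusted p = 0.0591) and the brightest Frmd4b probe set at 1.08 ± 0.35 (limma adjusted p = 0.0700). The array after removal was the lowest of the 4 for 12 members, 46.2%, and the highest for 9, 34.6%. Over the 4648 probe sets at 150 or more these shares were 36.5% and 35.1%. Over the 4 arrays the members varied by 1.25-fold to 2.78-fold between their highest and lowest signal, with a median of 1.96-fold, against 1.65-fold for those 4648.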

How the data were processed

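RNA of the 7 cell states was measured on 1 Affymetrix array each. The deposited intensity values are linear MAS5 signals, a method credited to the submitters' processing notes, with 2% trimmed means of about 150.1 on every array. No source used here gives its version or scaling target. The array annotation, with symbols updated through Entrez identifiers to RefSeq (GRCm38.p6), gave 1 symbol for 20393 of 22690 probe sets, several for 691 and none for 1606. The 64 controls were left out. Limma 3.58.1 in R 4.3.3 (intensity trend, Benjamini-Hochberg) was fitted to log2(signal + 11.4) of 14012 probe sets above the pooled median, 45.6, on any array, after a test on simulated data. It compared untreated cells, cells under TSA (24 h and 48 h pooled) and cells after removal. It had 2 residual degrees of freedom, from the time pairs alone, and 6.31 prior ones, so the lone arrays take their spread from those pairs. The pairs are the 24 h and 48 h arrays of each genotype, so this spread includes any change between these times. Each p and SE therefore measures no spread of replicates. The number of single, possibly technical, arrays limits precision. Members and lists were chosen with earlier results of these data known. The genes named by rule are all members and the 5 probe sets nearest outside each limit; neighbours, markers and other genes named were chosen after their values were seen.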

Additional observations from a re-analysis of the deposited data

How the results depend on the processing

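With limits of 20 and 200 the rule gave 9 members, and with 40 and 100 it gave 58; quantile normalization and median centring each gave 25, all 25 among the 26. Members at least 2-fold lower with TSA became 2 without the 24 h arrays, which leaves the 48 h array alone. On that array 1.06% of all probe sets tested were 2-fold lower. After removal against untreated, median centring gave 2 members higher in place of 1. After removal against TSA, limma called 2 members with the offset at the pooled median (Padi3 at -1.05 and Itga3 at -0.93) and 1 with median centring (the brightest Frmd4b probe set at 1.21), and with an offset of 1 there was 1 member lower; without the 24 h arrays 2 were higher and 2 lower, and without the 48 h arrays also 2 and 2. The cause was not tested. After removal against untreated, members 2-fold lower went from 6 to 4 with the offset at the pooled median or median centring and to 5 with quantile normalization. The members' median TSA difference, -0.10, was 0.15 without the 24 h arrays and -0.27 without the 48 h arrays, so its sign rests on the time taken; their median after removal, -0.15, was -0.02 with median centring and -0.34 with 1 probe set per gene. Their median against TSA, -0.38, was -0.22 without the 24 h arrays and -0.16 without the 48 h arrays. Median centring raised the median of all probe sets by 0.13 after removal against untreated and by 0.12 against TSA. It moved the share of higher among 2-fold calls from 44.4% to 59.4% and from 45.5% to 59.0%.

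Over all probe sets, TSA gave 240 higher and 53 lower, against 84 and 10 with the offset at the pooled median, 409 and 131 with an offset of 1, 108 lower with no filter, 145 and 27 with the stricter filter at the pooled upper quartile, and 32 lower with 1 probe set per gene. After removal against untreated gave 943 and 1183, against 448 and 398 with the offset at the median, 531 and 556 with the stricter filter, 1807 lower with no filter and 442 higher with 1 probe set per gene; limma called 2, and 0 to 12 over the alternatives. After removal against TSA gave 1011 and 1213, against 576 and 524, 632 and 730 with the stricter filter, and 496 higher with 1 probe set per gene; limma called 1976, and 0 with no filter and 1104 with 1 probe set per gene. No paired analysis was possible because the comparisons tested lie within the double-null cells, with 1 array per state; the genotypes share 3 matched states, but that contrast chose the members and was not tested. Dim signals limit the p53-null values, which lie near the background.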

Other observations

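Probe sets at most 30 on all p53-null arrays that reached 150 on some but not all double-null arrays were sorted by which arrays reached it, leaving out the genes set aside by name. Of these kinds, 17 probe sets reached it after removal alone, 16 at both TSA times alone, and 12 untreated and at both TSA times but not after removal. The genes named here were picked after their values were seen. Among the 12, Lgals7, a galectin of stratified epithelia, went from 328.6 untreated to 62.5 after removal, Slc47a1, an exporter of organic cations, from 153.8 to 19, and Cldn15, a claudin, from 239.4 to 82.4. The slow muscle troponin Tnni1 went from 252.6 to 74.0. In 7 probe sets the signal was below 150 at 24 h or 48 h and at least 150 untreated and after removal. Among them haptoglobin, Hp, read 481.3 untreated, 110.7 and 151.3 with TSA and 1178.7 after removal, and the imprinted gene Peg3 read 198.1, 84.1, 381.9 and 317.5. In 2 probe sets, Bzw2 and Saa3, the untreated array alone was below 150, at 142.7 and 145.4, so they missed it by little. Each value is that of a single array, and none of these patterns was tested.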
